A study of Mus musculus with 2 samples.

Results

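The genes described here were 10 products by which platelets and the megakaryocytes that make them are recognised: Pf4, Ppbp, Gp1ba, Gp1bb, Gp5, Gp6, Gp9, Vwf, Treml1 and Selp. They were chosen by name from 23284 gene symbols listed, with earlier results of these data known. RNA-seq had been run on the leukemic stem cells (LSCs) that sustain BCR-ABL-driven chronic myelogenous leukemia (CML) in transplanted mice, in 1 library from wild-type (WT) and 1 from STAP-1 knockout (KO) donor cells. In both, Lineage- Sca-1+ c-Kit+ (LSK) cells of C57BL/6J donors had been infected with a retrovirus carrying BCR-ABL and GFP and transplanted into irradiated congenic mice, and GFP+ CD45.2+ LSK cells were sorted on day 11. Mice in the study were 8 to 14 weeks old. The study does not state how many mice were pooled per library. The retrovirus marks whatever donor cell it enters, and the antibodies that marked lineage cells, against T, B, myeloid and erythroid antigens, included none against a megakaryocyte antigen. With 1 library per genotype no test was possible, and a difference of genotype and a difference between these libraries cannot be told apart.

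Megakaryocytes are large bone marrow cells that shed platelets into the blood. Platelets catch on injured vessel wall when von Willebrand factor binds their GPIb-IX-V receptor, are activated by collagen through GPVI, and then release granules filled with chemokines and adhesion proteins. Many of these genes are switched on by GATA and ETS family transcription factors, and several are also transcribed at low level in stem cells biased towards platelet production.

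Values were FPKM, fragments mapped to a gene, scaled to its length and to the size of the library. The lowest values moved in steps of 1 read, from which an effective depth of about 7500000 reads was estimated for WT and about 10470000 for KO. Brackets below give 95% intervals from the reads estimated in this way, exact Poisson for a level and Clopper-Pearson for a ratio, and they cover counting error only. At this depth a floor of 3 reads in a 2000-base transcript corresponded to 0.223 FPKM in WT and 0.160 in KO. Stap1, the deleted gene, stood at 62.0 FPKM in WT and 0.309 in KO. Of the antigens used in the sort, Kit was at 468 FPKM in WT and 30.1 in KO, and Ly6a, which encodes Sca-1, at 285 and 106.

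All 10 genes had a value above 0 in KO and 9 had one in WT, where Gp6 was listed at 0. In both libraries Pf4 was the most abundant and Gp6 the least, and the 10 summed to 107 FPKM in WT and 120 in KO. Pf4 alone made up 54.1% of that sum in WT and 59.2% in KO. The sum therefore moved little, while single genes moved in opposite directions: Ppbp, Treml1 and Selp were higher in KO by 2-fold or more, Gp1ba and Vwf were lower by 2-fold or more, and Pf4, Gp1bb, Gp5 and Gp9 lay within 2-fold. Thus 3 of the 9 genes with at least 0.1 FPKM in both libraries were higher, beside 12.3% of the 12507 genes so compared, and 2 were lower, beside 22.9%. The share that was lower, 22.2%, was near its background, and both shares rest on 9 genes. When both libraries were set to the same summed FPKM, which raised the median log2 ratio of all genes by 0.16, those background shares were 17.0% and 19.8%, and the counts for the platelet genes were again 3 and 2. After correction for transcript length and GC content 3 and 1 of 9 were called, beside 11.5% and 18.96% of all genes. Where 1 FPKM was asked of both libraries 2 and 1 of 7 were called, beside 10.6% and 19.3%. Where 0.1 FPKM in either sufficed, with a pseudocount of 0.1, 4 and 2 of 10 were called, beside 13.9% and 24.6%. The higher gene so added was Gp6, listed at 0 in WT, which passed only through its KO value of 0.101 FPKM. Its call rests on the pseudocount, since its log2 ratio was 1.01 at 0.1 and 0.14 at 1. In bulk RNA, fewer cells that express a gene and less of its RNA per cell cannot be told apart.

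**Figure D1:**
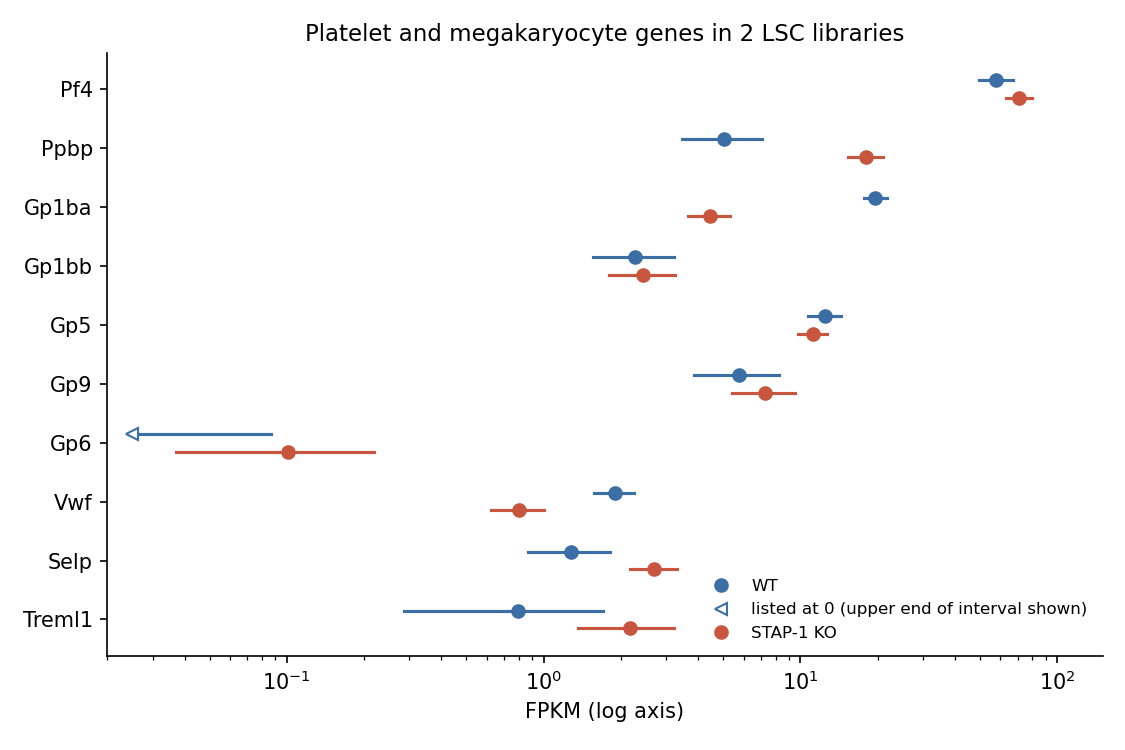
Level of each of the 10 genes in FPKM (log axis) in the WT library (blue) and the STAP-1 KO library (red), 1 library each. Points are deposited values and lines 95% Poisson counting intervals. The intervals of Ppbp, Gp1ba, Vwf and Selp do not overlap between the libraries, and Gp6, listed at 0 in WT, is drawn as the upper end of its interval.

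The granule chemokines differed from each other. Pf4 encodes platelet factor 4 (CXCL4), stored in alpha granules and widely used as a megakaryocyte marker, and lies at chr5:90772435-90773383 on the plus strand (GRCm38). Its level was 57.9 FPKM [49.4 to 67.4] in WT and 71.2 [63.1 to 79.9] in KO, a ratio of 1.23 [1.01 to 1.498]. The interval of that ratio only just left 1. Among genes with a value above 0, Pf4 exceeded 85.7% in WT and 87.5% in KO, so that it belonged to the well-expressed genes of both.

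Ppbp encodes pro-platelet basic protein (CXCL7), the precursor of a neutrophil-attracting chemokine, and lies 2371 bases upstream of Pf4 on the same strand, at chr5:90768518-90770063. It stood at 5.05 FPKM [3.46 to 7.06] in WT and 18.0 [15.4 to 20.98] in KO, a ratio of 3.56 [2.45 to 5.38]. Ppbp was therefore higher in KO, and it passed from above 40.3% to above 65.8% of expressed genes. The neighbours did not move by the same factor: the level of Pf4 was 11.5 times that of Ppbp in WT and 3.96 times in KO. Short transcripts as a class had higher ratios in KO, with a median log2 ratio of 0.51 in the shortest length class of 10, to which Pf4 (588 bases) and Ppbp (1083 bases) both belong. After subtraction of the trend with transcript length and GC content, the log2 ratio of Ppbp went from 1.81 to 1.02, and that of Pf4 from 0.30 to -0.21, which turns its direction. Before correction Ppbp had the largest increase of the 9 genes measured in both libraries, and after it Treml1 (1.13) and Selp (1.05) lay slightly above.

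The promoters of this pair are printed because the genes adjoin and their ratios differ. Sequences here run 5′ to 3′ on the strand of the gene, from 250 bases before to 50 after the RefSeq start (GRCm38.p6), and capitals mark matches to 2 motifs on either strand, one called GATA here and spelled AGATAA, with T allowed as its first letter and G as its last, and one called ETS here and spelled AGGAAG, with C allowed as its first letter. Pf4 lies at chr5:90772185-90772484 and Ppbp at chr5:90768268-90768567.
Pf4: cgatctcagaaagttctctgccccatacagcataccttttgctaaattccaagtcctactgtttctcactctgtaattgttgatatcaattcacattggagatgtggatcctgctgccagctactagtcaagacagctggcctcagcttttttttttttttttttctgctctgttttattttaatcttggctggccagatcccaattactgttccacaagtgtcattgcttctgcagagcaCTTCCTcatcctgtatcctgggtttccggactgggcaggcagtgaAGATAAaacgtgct
Ppbp: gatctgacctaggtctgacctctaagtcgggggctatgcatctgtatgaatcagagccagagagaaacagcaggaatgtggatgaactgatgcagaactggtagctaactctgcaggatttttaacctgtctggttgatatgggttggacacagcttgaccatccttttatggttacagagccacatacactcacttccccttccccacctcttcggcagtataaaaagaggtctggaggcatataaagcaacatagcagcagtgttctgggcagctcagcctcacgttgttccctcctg
The Pf4 window held 1 GATA match and 1 ETS match, whereas the Ppbp window held no match to these letters. Over the 9 genes with a promoter in the table (none was listed for Vwf), 5 held a GATA match, 6 an ETS match and 4 both. Of 32851 promoters of the same length, 29.8% held a GATA match, 46.5% an ETS match and 12.6% both. A match is a run of letters and not evidence of binding.

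The receptor for von Willebrand factor is built from the products of 4 genes, and only Gp1ba differed by 2-fold or more. Gp1ba encodes GPIb alpha, the chain that binds von Willebrand factor, and lies at chr11:70639122-70642036 on the plus strand. Its level was 19.6 FPKM [17.6 to 21.7] in WT and 4.43 [3.66 to 5.31] in KO. This is 4.42-fold lower in KO [3.58 to 5.49], from an estimated 367 reads in WT and 116 in KO. Gp1ba thus had the largest difference of the 9 genes measured in both libraries, and it passed from above 64.9% to above 43.9% of expressed genes. Correction for the length and GC trend left it about as large, with a log2 ratio of -2.12 before and -2.25 after.

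Gp5, which encodes the GPV chain of the same complex and is cut by thrombin, lies at chr16:30307685-30310779 on the minus strand. It stood at 12.5 FPKM [10.7 to 14.4] in WT and 11.1 [9.75 to 12.7] in KO, a ratio of 0.894 [0.734 to 1.09]. Its intervals overlapped, and with equal summed FPKM its log2 ratio of -0.16 became 0.01. Gp9, which encodes the small GPIX chain needed for surface assembly, lies at chr6:87778072-87779768 on the plus strand. Its level was 5.75 FPKM [3.85 to 8.25] in WT and 7.29 [5.39 to 9.52] in KO, a ratio of 1.27 [0.783 to 2.06]. The interval spanned 1, as it did for Gp5.

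Gp1bb encodes GPIb beta, the chain linked to GPIb alpha by a disulfide bond, and lies at chr16:18620317-18622403 on the minus strand. It was at 2.28 FPKM [1.55 to 3.21] in WT and 2.45 [1.80 to 3.24] in KO, a ratio of 1.07 [0.673 to 1.74]. This value is uncertain, because Gp1bb shares exon sequence on the same strand with Sept5, listed at 0.0695 FPKM in WT and 0.299 in KO, and with Gm49601, which was not analysed here.

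Set against its partners, Gp1ba was the most abundant transcript of the complex in WT but not in KO. The level of Gp1ba was 1.57 times that of Gp5 in WT and 0.398 times in KO. Relative to Gp9 it was 3.40 times and 0.608 times, and relative to Gp1bb 8.59 times and 1.81 times. By contrast the level of Gp5 relative to Gp9 was 2.17 times in WT and 1.53 times in KO. The 4 genes together summed to 40.1 FPKM in WT and 25.3 in KO, while the chemokine pair summed to 63.0 and 89.1.

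**Figure D2:**
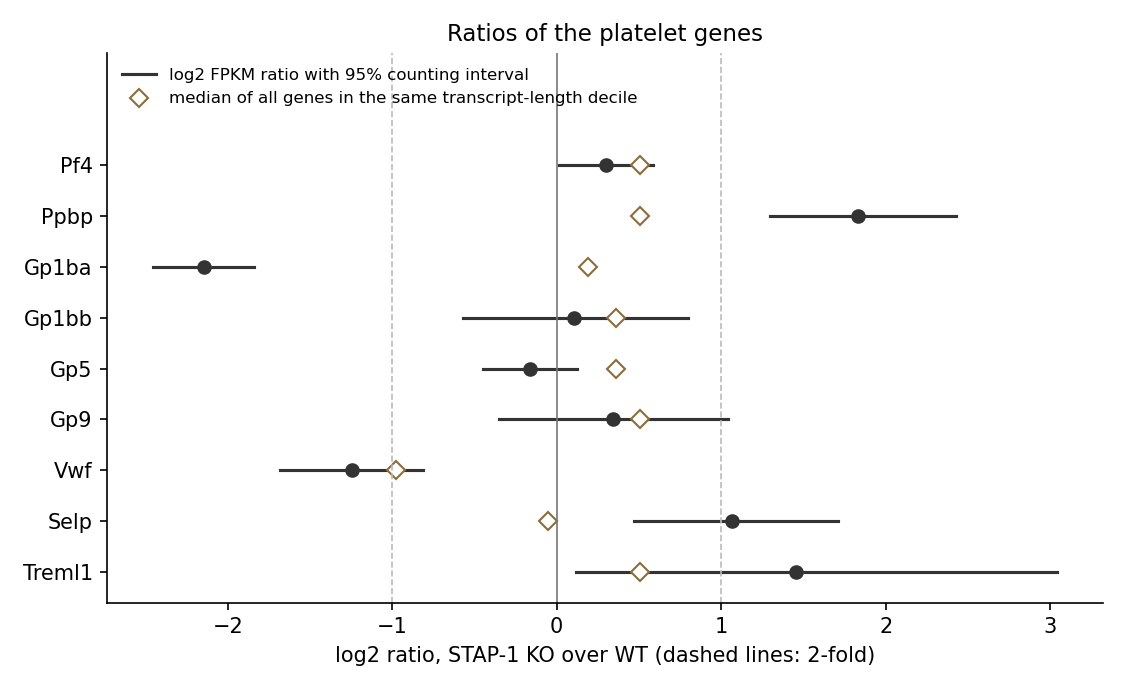
Log2 ratio of FPKM, STAP-1 KO over WT and without a pseudocount, for the 9 genes with a value in both libraries. Lines are 95% counting intervals, diamonds the median of all genes in the same of 10 transcript length classes, and dashed lines 2-fold. Gp1ba lies far to the left of its diamond, at 0.19, whereas Vwf lies close to its own, at -0.98.

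The promoters of Gp1ba, Gp5 and Gp9 are given to set the chain that differed beside partners that did not. They lie at chr11:70638872-70639171 (plus strand), chr16:30310732-30311031 (minus strand) and chr6:87777820-87778119 (plus strand).
Gp1ba: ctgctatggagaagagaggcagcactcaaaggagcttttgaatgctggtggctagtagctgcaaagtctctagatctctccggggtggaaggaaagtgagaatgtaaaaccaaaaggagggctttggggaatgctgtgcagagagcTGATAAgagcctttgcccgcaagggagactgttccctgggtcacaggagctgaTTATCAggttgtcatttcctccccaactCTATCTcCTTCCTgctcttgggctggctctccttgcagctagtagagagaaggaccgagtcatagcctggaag
Gp5: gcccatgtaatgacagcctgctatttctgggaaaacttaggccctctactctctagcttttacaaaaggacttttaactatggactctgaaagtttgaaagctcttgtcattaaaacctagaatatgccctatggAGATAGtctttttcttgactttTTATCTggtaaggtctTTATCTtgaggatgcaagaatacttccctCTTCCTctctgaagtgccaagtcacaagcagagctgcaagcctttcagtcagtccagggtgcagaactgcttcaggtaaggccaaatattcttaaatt
Gp9: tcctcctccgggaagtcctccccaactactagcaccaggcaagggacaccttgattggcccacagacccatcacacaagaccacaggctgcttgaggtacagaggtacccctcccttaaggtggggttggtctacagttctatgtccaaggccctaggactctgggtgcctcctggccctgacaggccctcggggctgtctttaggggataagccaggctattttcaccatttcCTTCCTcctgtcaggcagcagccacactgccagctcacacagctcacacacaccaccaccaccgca
Gp1ba and Gp5, which had unlike ratios, held the same number of matches, 3 to GATA and 1 to ETS. In Gp1ba the GATA matches began at -104, -51 and -23 from the start and the ETS match at -16. In Gp5 they began at -115, -93 and -77, with the ETS match at -48. The Gp9 window held only an ETS match, also at -16. Whether these matches have a part in the ratios was not tested.

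Of the adhesion proteins, Vwf was lower in KO. It encodes von Willebrand factor, the multimeric ligand of GPIb alpha, made by megakaryocytes and by endothelium, and lies at chr6:125546774-125686679 on the plus strand. Its level was 1.89 FPKM [1.57 to 2.25] in WT and 0.799 [0.624 to 1.004] in KO, 2.37-fold lower in KO [1.75 to 3.21]. Vwf has the longest transcript of the 10, 8834 bases, and the median log2 ratio of the longest length class of all genes was -0.98. After correction for length and GC content its log2 ratio of -1.15 became 0.15. The lower level of Vwf was therefore about that of other genes of its length, unlike that of Gp1ba.

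Selp encodes P-selectin, which moves from alpha granules to the platelet surface on activation and is made by endothelium as well, and lies at chr1:164115264-164150026 on the plus strand. It stood at 1.28 FPKM [0.869 to 1.82] in WT and 2.68 [2.17 to 3.30] in KO, a ratio of 2.10 [1.39 to 3.27]. Selp was higher in KO, just past 2-fold, and its interval reached below 2. The log2 ratio was 1.01, and 1.05 after the length and GC correction. Genes on the opposite strand overlap it: Gm16548, a lincRNA listed at 0 in WT and 0.1201 FPKM in KO, and Gm16587, which was not analysed here. Reads of Selp and of these genes cannot be told apart without strand.

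Of the receptors of activation, Treml1 was higher in KO and Gp6 was scarce in both libraries. Treml1 encodes TLT-1, a receptor of platelet and megakaryocyte granules, and lies at chr17:48359916-48367176 on the plus strand. Its level was 0.791 FPKM [0.286 to 1.70] in WT and 2.17 [1.36 to 3.21] in KO, a ratio of 2.75 [1.09 to 8.24]. The difference rested on an estimated 6.09 reads in WT and 23.3 in KO, so that its size was poorly fixed. Its log2 ratio was 1.35, and 1.13 after the length and GC correction.

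Gp6 encodes GPVI, the collagen receptor, and lies at chr7:4363965-4397744 on the minus strand. It was listed at 0 in WT, with an upper limit of 0.0864 FPKM, and stood at 0.101 FPKM [0.0369 to 0.219] in KO, an estimated 6.03 reads. The counting interval of the ratio, KO over WT, reached down to 0.843, so that a difference in Gp6 was not detectable at this depth.

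The order of levels was read from the intervals. In WT it ran Pf4, Gp1ba, Gp5, Gp9, Ppbp, Gp1bb, Vwf, Selp, Treml1 and Gp6, and neighbours overlapped from Gp9 to Ppbp and at each step from Gp1bb to Treml1. In KO it ran Pf4, Ppbp, Gp5, Gp9, Gp1ba, Selp, Gp1bb, Treml1, Vwf and Gp6, and the overlapping neighbours were Selp with Gp1bb and Gp1bb with Treml1. Ppbp moved from the fifth place to the second, and Gp1ba from the second place to the fifth. Pf4 and Gp6 kept the ends. Without Gp6, the level of the most abundant gene was 73.3 times that of the least in WT, where this was Treml1, and 89.1 times in KO, where it was Vwf.

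**Figure D3:**
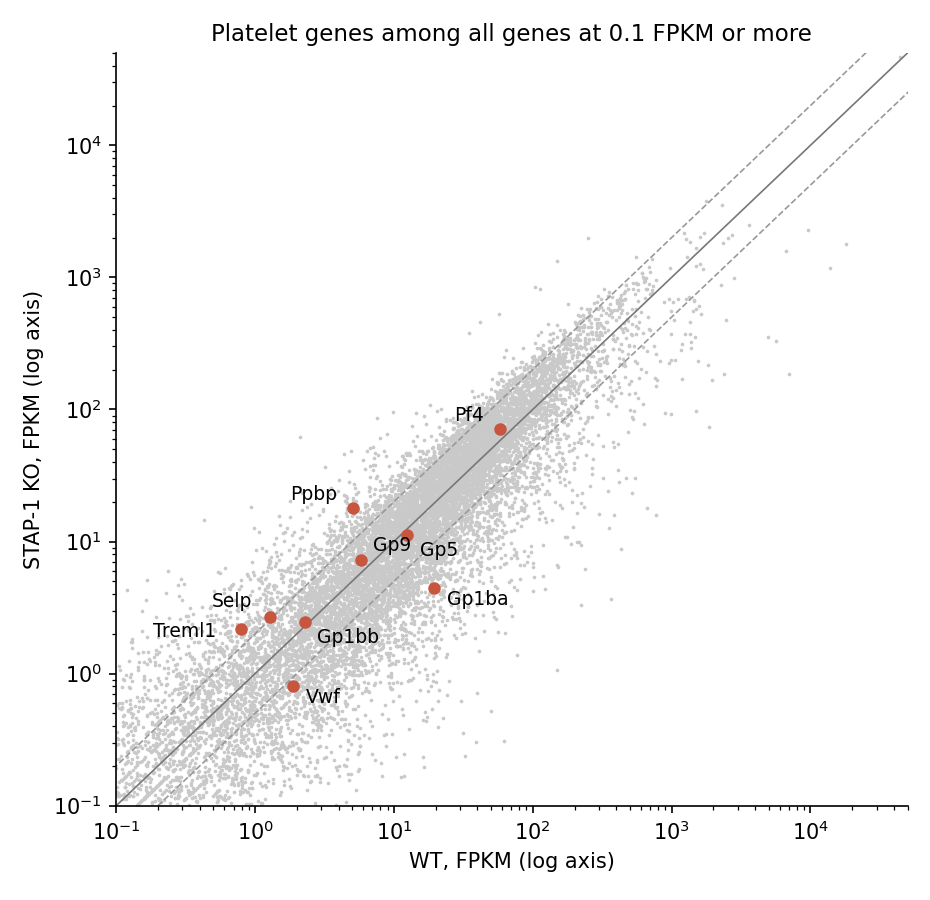
FPKM in the STAP-1 KO library against the WT library on log axes, for genes with at least 0.1 FPKM in both (grey) and the 9 platelet genes so measured (red). The solid line marks equal levels and dashed lines 2-fold. Ppbp, Treml1 and Selp lie above the upper dashed line, and Gp1ba and Vwf below the lower one.

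As a group the 9 genes had a median log2 ratio of 0.30, with 6 above 0 and 3 below, beside -0.08 for the 13537 genes whose mean reached 0.1 FPKM. The median gene was Pf4, and the median became 0.19 after the length and GC correction and 0.47 with equal summed FPKM. A wider list of 79 genes of megakaryocytes and platelets, without these 10, lay lower. Of its 77 genes in the files, 74 could be compared, 12 were higher (16.2%, beside 12.3% of all genes) and 29 lower (39.2%, beside 22.9%). The higher share was near its background. The median log2 ratio was -0.65, with 25 genes above 0 and 51 below. The length and GC correction ended 3 of the higher and 2 of the lower calls and added 1 higher and 4 lower. This left 10 of 74 higher, beside 11.5% of all genes so corrected, and 31 lower (41.9%), beside 18.96%. The list median was -0.50 after the correction, and -0.48 without genes that share exons with another.

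Markers of other cells also differed between the libraries. All 11 mast cell and basophil markers that could be compared were lower in KO, beside 22.9% of all genes, and their list summed to 61330 FPKM in WT and 7586 in KO. Mast cells and basophils also transcribe several genes of the wider list, Gata2 among them. Of 12 markers listed, only Mrgprb1 was at 0 in WT. Markers of primary granule cells were higher in 7 of 7, beside 12.3% of all genes, with sums of 572 and 4670 FPKM. Erythroid markers were lower in 4 of 9 compared (44.4%, beside 22.9% of all genes) and summed to 2303 and 1131 FPKM, and Klf1 stood at 103 and 108. Their part in the results for the platelet genes was not tested.

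Endothelium, which shares Vwf, Selp and Esam with platelets, had markers that were higher in 4 of 8 compared, beside 12.3% of all genes, and lower in none, beside 22.9%, with sums of 32.9 FPKM in WT and 72.7 in KO. Most of these sums came from Egfl7, at 22.3 and 49.1 FPKM, which hematopoietic progenitors also transcribe. The defining marker Cdh5 (VE-cadherin) was at 0.0706 FPKM in WT and 0 in KO, and Robo4 at 0 and 0.0823, whereas Tek stood at 1.17 and 1.18. Emcn was at 0.110 FPKM in WT and 0.787 in KO, Plvap at 2.58 and 5.44, and Tie1 at 2.29 and 3.38. Cdh5 and Robo4 were thus at or near 0 in both libraries, while Emcn and Plvap were higher in KO. Emcn rested on an estimated 2.73 reads in WT. The part of endothelial RNA in the results for Vwf and Selp was not tested. Of markers of hematopoietic stem cells, 2 of 9 were higher and 2 lower, each 22.2% of the group, beside 12.3% and 22.9% of all genes. Slamf1 was higher, at 3.39 FPKM in WT and 8.67 in KO, and Mecom lower, at 4.08 and 1.56.

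Among the transcription factors of the lineage, 1 of 12 was higher (8.33%, beside 12.3% of all genes) and 2 were lower (16.7%, beside 22.9%). Before correction neither share exceeded its background. The median log2 ratio of the 12 was -0.53, with 2 above 0 and 10 below. Gata2, which maintains progenitors and gives way to Gata1 as they mature, was at 409 FPKM in WT and 55.2 in KO. Tal1, a partner of the GATA factors, was also lower, at 17.9 and 6.94 FPKM. The higher gene was Nfe2, a regulator of late megakaryocyte maturation and platelet release, at 107 FPKM in WT and 236 in KO. After the length and GC correction its log2 ratio of 1.15 became 0.75, below 2-fold. Gata1 (187 and 96.1 FPKM), Runx1 (22.8 and 12.3) and the ETS factor Fli1 (54.7 and 48.6) lay within 2-fold. The same correction took Gata1 past 2-fold lower, from a log2 ratio of -0.96 to -1.20. Gata2 and Tal1 stayed lower after it, beside 18.96% of all genes. Sh2b3, an adaptor that restrains cytokine signalling, was lower, at 35.0 and 7.86 FPKM.

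The integrin chains were lower in 3 of 6 genes of their group, beside 22.9% of all genes, and higher in none, beside 12.3%. Itga2b and Itgb3 encode the fibrinogen receptor of platelets (CD41 and CD61). Itga2b was at 123 FPKM in WT and 32.5 in KO, and Itgb3 at 27.7 and 3.55. Itga2, a chain of a collagen receptor, was at 11.8 and 0.167 FPKM, the largest difference among genes of the wider list measured in both libraries. Both fibrinogen receptor chains were therefore lower by 2-fold or more, as was Gp1ba, whereas Gp5 and Gp9 were within 2-fold. The tetraspanin Cd9 (279 and 177 FPKM) and the integrin chain Itga6 (6.61 and 7.96) lay within 2-fold. After the length and GC correction the log2 ratio of Cd9 went from -0.65 to -1.25, past 2-fold lower.

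Secreted granule proteins had the highest median log2 ratio of the groups on the wider list, 0.46, and 4 of 12 were higher (33.3%, beside 12.3% of all genes) and 3 lower. Serpine2, a protease inhibitor of thrombin, was at 4.19 FPKM in WT and 12.98 in KO, and Clu, the chaperone clusterin, at 4.08 and 12.2. Angpt1, a ligand of the endothelial receptor Tie2, was at 24.9 and 51.1 FPKM. These went the way of Ppbp. The growth factor gene Tgfb1 (177 and 75.6 FPKM) and the adhesive glycoprotein gene Thbs1 (3.53 and 1.14) were lower. The 3 lower genes were 25.0% of the group, near the 22.9% of all genes. After the length and GC correction Angpt1 fell short of 2-fold, its log2 ratio going from 1.04 to 0.88, and that of Thbs1 went from -1.54 to -0.98, at the edge of the call. Of 7 genes of granule formation 2 were lower (28.6%, beside 22.9% of all genes). Nbeal2, needed for alpha granules, was lower (13.7 and 0.934 FPKM), as was the dense granule gene Hps3 (22.7 and 9.76). The log2 ratio of Nbeal2, a long transcript, went from -3.74 to -2.36 after the length and GC correction. The other 5 genes lay within 2-fold, among them Slc35d3 (18.0 and 10.4 FPKM), Vps33b (19.3 and 16.8) and its partner Vipas39 (22.0 and 19.2).

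Agonist and adhesion receptors were split, with 4 of 14 higher (28.6%, beside 12.3% of all genes) and 7 lower (beside 22.9%). The lower genes included F2r, a thrombin receptor, at 492 FPKM in WT and 155 in KO, and the ATP-gated channel P2rx1 at 108 and 20.4. F2rl2, of the same receptor family and named after its values were seen, was lower too, at 47.0 and 17.1 FPKM. Also lower were the ADP receptor P2ry1 (14.2 and 4.49 FPKM), the prostaglandin receptor Ptger3 (157 and 37.6) and the adhesion receptor Cd226 (3.69 and 0.587). The 4 higher genes were named after their values were seen. They were F2rl3, a thrombin receptor as well (5.66 and 15.2 FPKM), the thromboxane receptor Tbxa2r (1.64 and 6.03), and the junction proteins Esam (3.73 and 12.01) and Jam3 (0.378 and 2.01). Jam3 rested on an estimated 4.92 reads in WT. The length and GC correction took Pear1 (2.77 and 4.69 FPKM), also named after its values were seen, from a log2 ratio of 0.74 to 1.62, past 2-fold higher.

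Signalling proteins were lower in 5 of 11 genes (45.5%, beside 22.9% of all genes) and higher in 1 (9.09%, beside 12.3%). Gnaz, a G protein of platelets, was at 27.1 FPKM in WT and 1.97 in KO, and Plek, the kinase C substrate pleckstrin, at 226 and 23.5. The adaptor gene Lcp2 (211 and 56.9 FPKM) and the thromboxane synthase gene Tbxas1 (90.1 and 26.1) were lower as well. The single higher gene was Rasgrp2, the activator of Rap1 that switches on platelet integrins, at 5.24 and 25.6 FPKM. Its transcript is long, and its log2 ratio of 2.26 became 3.24 after the length and GC correction. The same correction took Lat (169 and 86.7 FPKM), named after its values were seen, from -0.97 to -1.05, past 2-fold lower.

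Of 10 cytoskeletal genes 6 were lower (60.0%, beside 22.9% of all genes) and 2 higher (beside 12.3%). Tln1, the talin that links integrins to actin, was at 97.3 FPKM in WT and 8.38 in KO. Myosin gene Myh9 (41.2 and 5.001 FPKM) and Flna, whose filamin binds GPIb alpha (82.0 and 18.2), were lower as well. Their transcripts are long, and after the length and GC correction the log2 ratio of Flna went from -2.17 to -0.98, short of 2-fold, that of Myh9 from -3.02 to -1.77 and that of Tln1 from -3.52 to -2.22. Diap1, named after its values were seen, also fell short of 2-fold, at -0.52. By contrast the log2 ratio of Tpm4, another lower gene (130 and 44.2 FPKM), went from -1.56 to -1.93. That of Tmsb4x (3626 and 2495 FPKM), named after its values were seen, went from -0.54 to -1.13, past 2-fold lower. The 2 higher genes were tubulins, Tuba4a (257 and 576 FPKM) and Tubb1, the tubulin of the platelet marginal band, which was scarce, at 0.445 and 1.04 FPKM or an estimated 4 and 13 reads. The counting interval of the Tubb1 ratio ran from 0.719 to 9.80, and after the length and GC correction its log2 ratio went from 1.06 to 0.83, short of 2-fold.

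**Figure D4:**
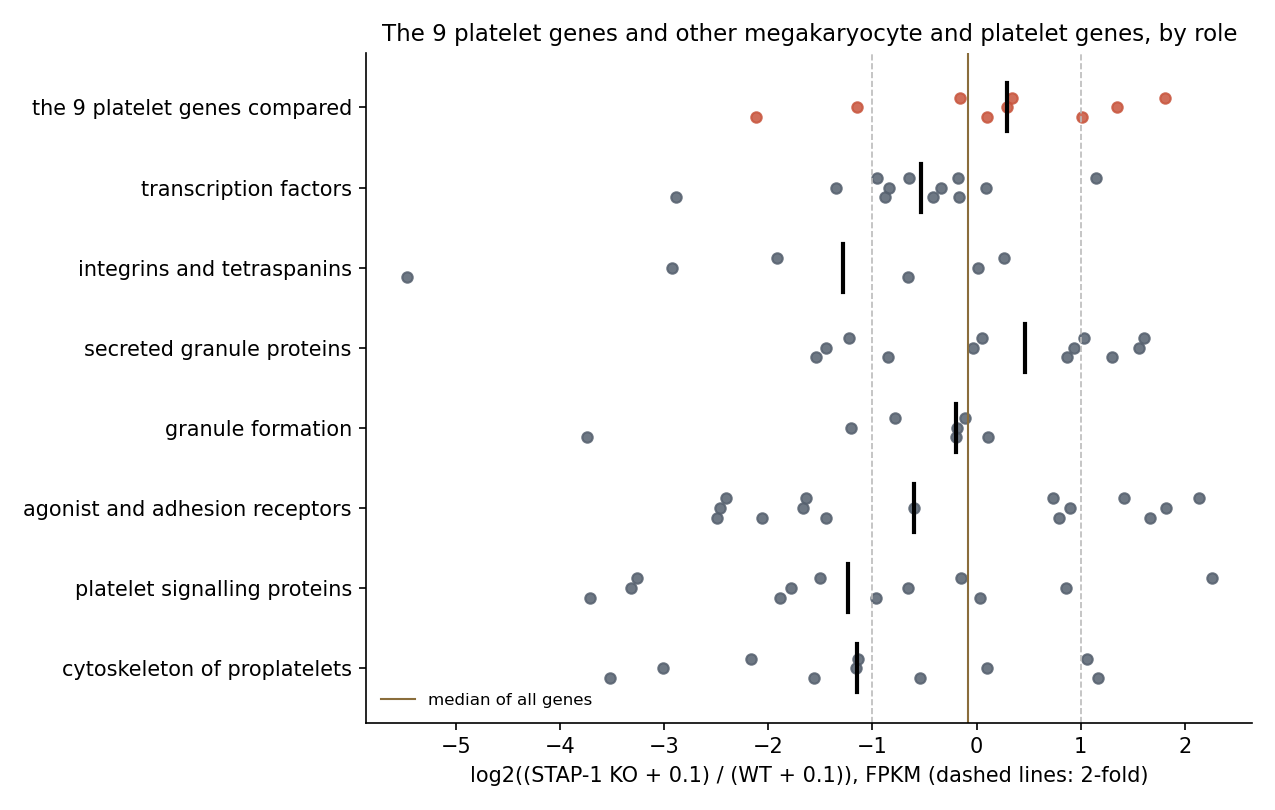
Log2 ratio of FPKM plus 0.1, STAP-1 KO over WT, for the 9 platelet genes compared (red) and for the roles of the wider megakaryocyte and platelet list with 6 or more genes (grey), 1 point per gene. Black bars are group medians, the brown line the median of all genes at -0.08, and dashed lines 2-fold. The integrin, signalling and cytoskeletal medians lie below -1, that of the secreted granule proteins at 0.46.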

How the data were processed

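RNA-seq (single 75-base reads, per the study's methods) was available for 1 WT and 1 STAP-1 KO library of sorted CML LSCs. The authors aligned reads to mm10 with TopHat 2.0.13 and Bowtie2 2.2.3, and the deposited values are FPKM per gene, made by the authors with Cuffnorm of Cufflinks 2.2.1, which scales libraries to each other. The annotation used was not given in the sources used here.

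The 10 genes and all gene lists were chosen with earlier results of these data known. Symbols were matched to GENCODE M21 (GRCm38): 20911 of 23284 matched as written, 1901 by an older symbol and 472 not. A gene was called higher or lower at a ratio of 2 or more with at least 0.1 FPKM in both libraries. Log2 ratios used FPKM plus 0.1, and medians cover genes whose mean reached 0.1 FPKM. No test was run, since there was 1 library per genotype.

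Effective depth was estimated from the steps of low values, with transcript length reduced by 208 bases. Of the low values examined, 45.6% in WT and 47.2% in KO lay within 0.01 of a whole read, so reads are estimates. Scripts were tested on simulated data. Length and GC trends were removed as medians of 20 bins each. Genes named from the wider list were the 5 with the largest absolute log2 ratio at a pseudocount of 1 in each role, plus genes fixed by name. Of other markers the most abundant 3 per cell type were eligible, and Cdh5, Robo4, Tek, Emcn, Tie1, Mecom and Mrgprb1 were added after their values were seen. Promoters came from RefSeq (GRCm38.p6). A gene of the wider list is counted in its totals but not reported here.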

Additional observations from a re-analysis of the deposited data

How the results depend on the processing

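The length and GC correction reversed Vwf, to a log2 ratio of 0.15 from -1.15, and left 1 of the 10 genes lower. Asking for a ratio of 3 or more left 1 gene higher and 1 lower, and 6 of the wider list higher and 21 lower, beside 4.21% and 12.95% of all genes. Asking for 1 FPKM in both libraries also left 1 lower. Without genes that share exons, 41 genes of the wider list could be compared instead of 74, and 16 of these were lower (39%) instead of 29 (39.2%). Of these 41, 8 were higher. Among all genes so compared, 12.7% were higher and 24.0% lower. The median of the wider list, -0.65, became -0.49 with equal summed FPKM, -0.50 after the length and GC correction and -0.48 without shared exons. Of 58 values for single genes under the alternatives, 54 stayed inside their counting intervals. This count overstates stability, because values without shared exons repeat the main ones and could not leave. The interval of Gp6 has no upper end, so that no rise of Gp6 could leave it either. Besides the reversal of Vwf, the values outside were Pf4 (-0.21) and Ppbp (1.02) after the length and GC correction, and Vwf (-0.68) at a pseudocount of 1. The causes were not tested, and the spread between animals is unknown. Treml1, Tubb1 and Gp6 rest on few reads, as do Jam3 and Emcn, with an estimated 4.92 and 2.73 in WT. Pdgfa and Pdgfb, counted as lower and higher among the secreted granule proteins, rest on few as well. No paired analysis was possible because each genotype has 1 library.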
